A study of Mus musculus with 9 samples.

Results

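The odorant-binding proteins and nasal lipocalins were followed as 10 named genes: Obp1a, Obp1b, Obp2a, Obp2b, Lcn3, Lcn4, Lcn11, Lcn13, Lcn14 and Mup4. They were chosen by name and not by level, and 8 of the 55291 genes in the expression table carried one of these names. The other 2 names were accounted for by the gene annotation, in which RefSeq lists Lcn13 as a synonym of Obp2a and Lcn14 as a synonym of Obp2b. All 8 genes passed the filter on low counts and were among the 23225 genes tested.

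RNA was sequenced from the dissected main olfactory epithelium of 9 mice on C57BL/6, aged 8 to 12 weeks. Of these, 3 were wild-type littermate controls, 3 were Ms4a cluster-/- mice, which lack the Ms4a genes through CRISPR/Cas9 deletion, and 3 were Ms4a6c-/- mice, made by homologous recombination to lack Ms4a6c alone. No Cre or other restriction to a cell type is named for either knockout, and the labels do not give the sex of the mice or say that any were pooled. The study compared the knockouts, which lack chemoreceptor genes of the olfactory necklace neurons, with wild type, and the levels are given here by genotype and by animal.

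Lipocalins are small secreted proteins whose barrel-shaped fold encloses a pocket for hydrophobic molecules. Odorant-binding proteins are the lipocalins that nasal glands release into the mucus over the olfactory epithelium, where they bind odorants, and the major urinary proteins are relatives known for carrying pheromones. Lcn3 and Lcn4, also named Vnsp1 and Vnsp2, were first described as vomeronasal secretory proteins and are made in glands of the nasal septum and vomeronasal organ. Because whole tissue was sequenced, fewer cells of a type and less RNA per cell cannot be told apart in any of the values.

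The genes sit at 3 places in the mouse genome (GRCm38, coordinates from GENCODE). Obp1a lies on chrX:78085505-78091374 on the minus strand, and Obp1b on chrX:78186777-78192292 on the plus strand, 95.4 kb away. On chromosome 2, Obp2a (25700043 to 25703326), Obp2b (25737009 to 25740097), Lcn3 (25765569 to 25768099) and Lcn11 (25777017 to 25780279) follow each other on the plus strand within 80.24 kb. Lcn4 is on the minus strand of the same chromosome at 26667674 to 26671282, 887.4 kb beyond Lcn11. Mup4 is on the minus strand of chromosome 4 at 59956804 to 59960710. Each encodes a protein of between 163 and 187 residues, from 7 exons, or 6 in Lcn11.

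Short stretches upstream of the starts are shown because they let the relatedness of the genes be set beside their levels. The sequences are 30 bases from RefSeq (GRCm38.p6), read 5′ to 3′ on the gene's own strand, and capitals mark TATAAA, the core promoter motif that was searched for on both strands. The search covered the 70 bases before each RefSeq start. For Mup4 the RefSeq start lies inside the gene as placed by GENCODE, so its stretch falls within the GENCODE coordinates given above. For Lcn4, which lacks the motif there, the stretch shown is the one within 250 bases of the start that is most like that of Obp2a.
Obp1a, chrX:78091385-78091414, minus strand: tcactaaatgTATAAAaacctttgttagtc
Obp1b, chrX:78186737-78186766, plus strand: aaactaactgTATAAAaagctttgtaaatt
Obp2a, chr2:25700003-25700032, plus strand: ccatgggagaTATAAAgggcaccctgtgag
Obp2b, chr2:25736969-25736998, plus strand: ccatgggggaTATAAAgggcaccctgtgag
Lcn3, chr2:25765494-25765523, plus strand: catgggtctgTATAAAgagtagtcaagtga
Lcn4, chr2:26671333-26671362, minus strand: catttttgtccataaagggcatcctctgag
Mup4, chr4:59960675-59960704, minus strand: ccagagcataTATAAAgacaagcaaaggag

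The motif stood on the gene's strand in 6 of the 8 genes and was not found on either strand in Lcn4 or Lcn11. On either strand it was in 4.383% of 32851 RefSeq promoter windows of the same length. The Obp2b stretch matched that of Obp2a at 29 of 30 bases, and the Obp1b stretch matched that of Obp1a at 23 of 30. The Lcn4 stretch matched Obp2a at 19 of 30 bases. The best stretch of Mup4 matched it at 18 of 30, those of Obp1b and Lcn11 at 15, that of Obp1a at 14 and that of Lcn3 at 13. Over the coding sequence, Obp1a and Obp1b were 70.5% identical, Obp2a and Obp2b 73.3%, and Lcn3 and Lcn4 55.5%.

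Before the carriers are described, 2 features of the libraries bear on them. Expected counts, the estimated number of reads per gene, summed to between 13954591 and 21987174 in a mouse, and 3 counts, the limit used for telling a level from 0, came to between 0.123 and 0.299 CPM, the count relative to the TMM-scaled library. The 8 genes together took from 0.00422% of the counts in Ms4a cluster knockout 1 to 9.29% in wild type 1 and 10.7% in Ms4a cluster knockout 2. These latter libraries stood apart, with TMM scaling factors of 0.702 and 0.704 against 1.07 to 1.13 in the others. Omp, the marker of mature olfactory neurons, was between 4018 and 5215 CPM in all mice, and Ms4a6c was between 3.84 and 4.99 CPM in wild-type mice and at most 0.127 CPM in either knockout. Ms4a1, which only the cluster deletion removes, was at 0 in the 3 Ms4a cluster knockout mice and between 0.510 and 1.61 CPM in the others.

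Transcripts of the odorant-binding proteins ranged over more than 3 orders of magnitude between mice, including mice of the same genotype. Obp1a and Obp1b, the X-linked odorant-binding proteins, held the highest level per length in 7 of the 9 mice. Obp1a was at 25734, 1102 and 45.5 CPM in wild type 1, 2 and 3. In Ms4a cluster knockout 1, 2 and 3 it was at 9.27, 48916 and 2758 CPM, and in the Ms4a6c knockout mice at 428, 92.2 and 41.7 CPM. The lowest and the highest of the 9 values thus came from mice of 1 genotype, the Ms4a cluster knockout, and differed 5278-fold.

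The means of Obp1a were 8961 ± 14536 CPM in wild-type mice, 17228 ± 27477 CPM in Ms4a cluster knockout mice and 187 ± 210.2 CPM in Ms4a6c knockout mice (SD, n = 3 each). The SD was above the mean in all 3 groups, and the groups overlapped. Obp1b was at 29866, 1206 and 59.7 CPM in the wild-type mice, at 12.1, 58607 and 2865 CPM in the Ms4a cluster knockout mice, and at 517, 118 and 53.9 CPM in the Ms4a6c knockout mice. The 9 mice fell in the same order for both genes, from Ms4a cluster knockout 2 and wild type 1 down to Ms4a cluster knockout 1.

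**Figure D1:**
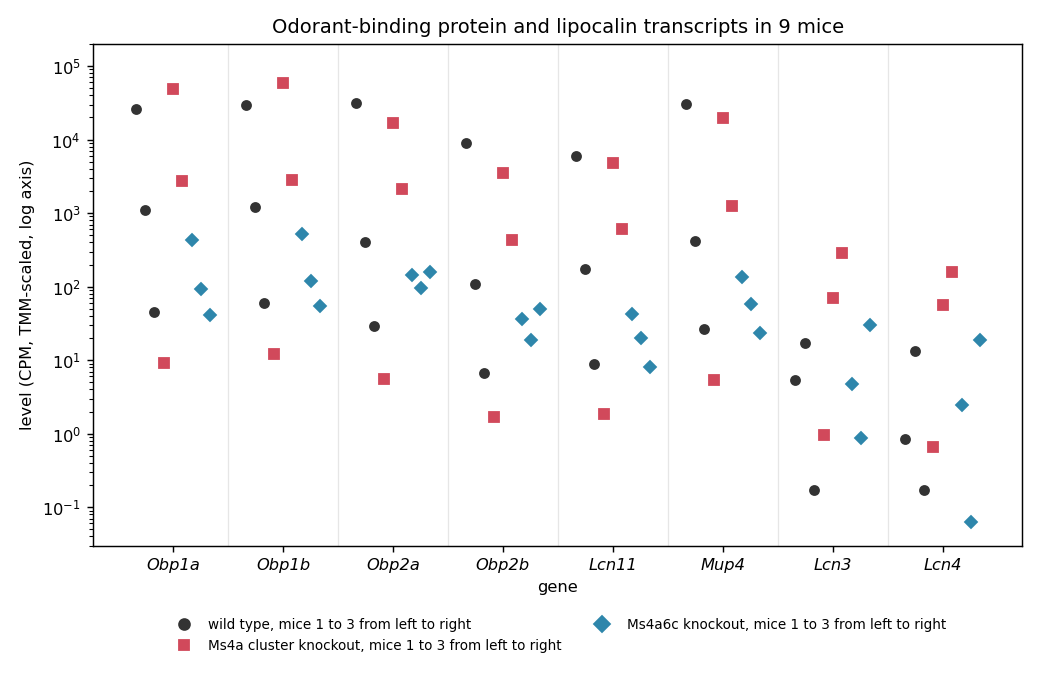
Level of each gene in each mouse, in CPM on a log axis; 1 point is 1 mouse, grouped by genotype and placed in replicate order. Wild type 1 and Ms4a cluster knockout 2 lie far above the other mice for the first 6 genes, and Ms4a cluster knockout 3 is the highest for Lcn3, at 284 CPM, and Lcn4, at 159.8 CPM.

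Although their levels moved so widely, Obp1a and Obp1b kept a nearly fixed proportion. Per kilobase of transcript, the ratio of Obp1a to Obp1b was between 0.802 and 1.01 in the 9 mice, with a median of 0.872. Their transcripts did not share a stretch of at least 300 bases at 90% identity. Obp1b did share 99.34% identity over 757 bases with Gm14743, a gene further along the chromosome whose level was 1.20 to 8437 CPM, so the split of reads between Obp1b and Gm14743 is uncertain. Per length, the ratio of Obp1b to Gm14743 ranged from 4.78 to 55.3.

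Obp2a and Obp2b, the odorant-binding proteins of chromosome 2, were led by wild type 1. Obp2a was at 31561, 411 and 29.0 CPM in the wild-type mice, at 5.56, 17061 and 2155 CPM in the Ms4a cluster knockout mice, and at 146, 95.8 and 158 CPM in the Ms4a6c knockout mice. Obp2b was at 9008, 107.9 and 6.77 CPM, then 1.70, 3481 and 431 CPM, then 36.3, 18.6 and 49.3 CPM in the same mice. The groups overlapped for both genes, and both had their mice in 1 order, with Ms4a6c knockout 3 placed above both other Ms4a6c knockout mice, where Obp1a placed it below them.

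Per length Obp2a was 3.15 to 5.06 times as high as Obp2b in the 9 mice, with a median of 3.96. The ratio of Obp1a to Obp2a varied more, from 0.260 in Ms4a6c knockout 3 to 2.88 in Ms4a6c knockout 1. In Ms4a6c knockout 3, Obp2a was also 8.23 times as high per length as Mup4, against 1.08 to 2.10 times in the other 8 mice. That mouse thus had Obp2a high relative to Obp1a and Mup4.

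Lcn11, a lipocalin of the same chromosome 2 row, was at 6059.7, 174 and 8.82 CPM in the wild-type mice, at 1.85, 4832 and 614 CPM in the Ms4a cluster knockout mice, and at 42.7, 20.2 and 8.09 CPM in the Ms4a6c knockout mice. Mup4, a major urinary protein gene expressed in nasal tissue, was at 30174, 423 and 26.5 CPM, then 5.36, 19524 and 1269 CPM, then 137, 58.7 and 23.8 CPM in the same mice. Lcn11 and Mup4 ranked the 9 mice identically although they lie on different chromosomes, and their groups overlapped. Mup4 shared 92.41% identity over 922 bases with Mup5 and 91.9% with Mup6, so part of its reads could have been assigned between them. Mup5 was between 0.0501 and 3971 CPM and was lower than Mup4 in all 9 mice, and Mup6 was at most 6.68 CPM.

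Lcn3 and Lcn4, the vomeronasal secretory proteins, had the lowest levels per length in 8 of the 9 mice and did not have wild type 1 at the top. Lcn3 was at 5.33, 17.3 and 0.171 CPM in the wild-type mice, at 0.952, 70.0 and 284 CPM in the Ms4a cluster knockout mice, and at 4.796, 0.868 and 29.7 CPM in the Ms4a6c knockout mice. Lcn4 was at 0.853, 13.4 and 0.171 CPM, then 0.651, 55.6 and 159.8 CPM, then 2.46, 0.0620 and 18.9 CPM in the same mice. Both were highest in Ms4a cluster knockout 3, next in Ms4a cluster knockout 2 and then in Ms4a6c knockout 3, and all groups overlapped. Wild type 3 for both genes and Ms4a6c knockout 2 for Lcn4 were at or under 3 counts, so these levels could not be told from 0.

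In wild type 1, where Obp2b was at 12306 CPM per kilobase, Lcn3 was at 7.79 CPM per kilobase, a ratio of 1579. In Ms4a cluster knockout 3 the values were 589 and 415 CPM per kilobase, a ratio of 1.42. Lcn3 and Lcn4 themselves differed per length by 1.42 to 7.07 times in the 7 mice in which both were above the limit, wild type 1 having the largest ratio.

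On the scale of CPM per kilobase, which allows genes to be compared within a mouse, the order in 5 of 9 mice was Obp1b, Obp1a, Obp2a, Mup4, Lcn11, Obp2b, Lcn3 and Lcn4. In wild type 1 Obp2a led, and in Ms4a cluster knockout 3 Obp1a and Obp1b changed places, with 3643 and 3595 CPM per kilobase. The ratio of Obp1a to Obp1b was below 1 in every mouse except Ms4a cluster knockout 3, where it was 1.01, and the difference was not tested. In Ms4a6c knockout 3 the order was Obp2a, Obp1b, Obp2b, Obp1a, Lcn3, Mup4, Lcn4 and Lcn11, the only mouse in which Lcn3 was above Mup4 or Lcn11.

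To ask which genes were high in the same mice, all 28 pairs of the 8 genes were correlated on log2 CPM over the 9 mice, with exact permutation p-values and Benjamini-Hochberg adjustment over the 28. For 6 of the genes wild type 1 and Ms4a cluster knockout 2 lay above the other 7 mice, so r is also given over those 7. The 15 pairs among Obp1a, Obp1b, Obp2a, Obp2b, Lcn11 and Mup4 had Pearson's r between 0.958 and 0.9998 and Spearman's rho between 0.883 and 1, and the highest adjusted p was 0.000198 for r and 0.00538 for rho (exact permutation, n = 9). The 2 mice farthest from the median were wild type 1 and Ms4a cluster knockout 2 in all 15 pairs. Over the other 7 mice r was 0.903 to 0.9998, and all 15 pairs passed. As deviations from the genotype means it was between 0.958 and 0.9998, so the shared order was also present within genotypes.

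Lcn3 and Lcn4 were correlated with each other at r = 0.965 and rho = 0.967 (exact permutation, adjusted p = 0.000121 for r and 0.000579 for rho, n = 9). Without the 2 farthest mice r was 0.961. The 12 pairs of Lcn3 or Lcn4 with the other 6 genes had r between 0.427 and 0.631, and 0 of 12 passed by r (lowest adjusted p = 0.111, exact permutation, n = 9). By rho, 2 of the 12 passed, Lcn3 with Obp2a and with Obp2b (adjusted p = 0.0397, exact permutation, n = 9). These 12 values turned on wild type 1: without it r was 0.698 to 0.838 and 5 of 12 pairs passed, and without both wild type 1 and Ms4a cluster knockout 2 r was 0.656 to 0.8796 and 3 passed. A p that misses the threshold does not show that these genes were independent.

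**Figure D2:**
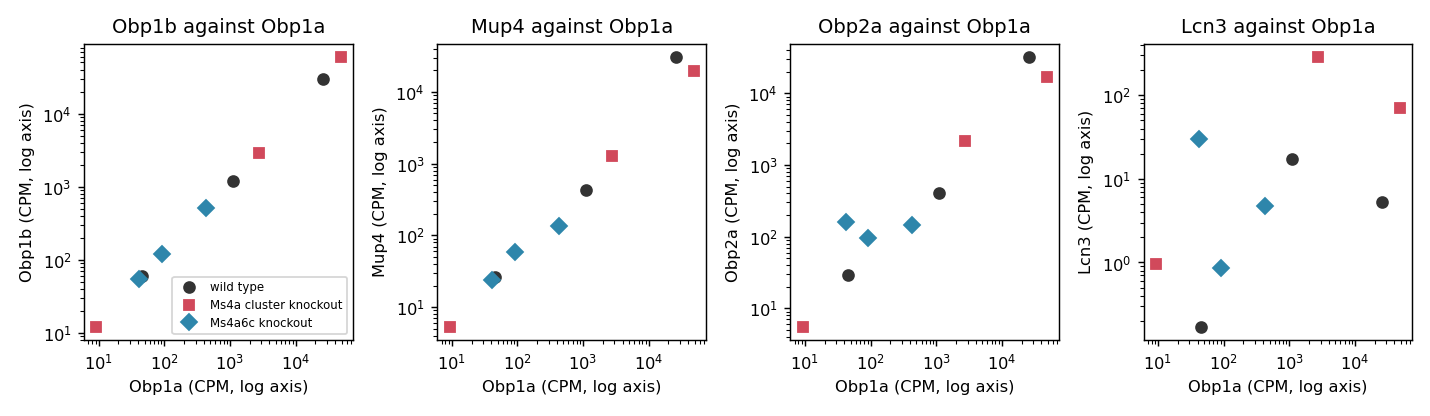
Level of Obp1b, Mup4, Obp2a and Lcn3 against that of Obp1a in the 9 mice, in CPM on log axes, with 1 point per mouse. Obp1b ranked the mice as Obp1a did, and Mup4 did so except that wild type 1, at 30174 CPM, was above Ms4a cluster knockout 2, at 19524 CPM. Obp2a left the line in Ms4a6c knockout 3 at 158 CPM, and Lcn3 was scattered, with wild type 1 at 5.33 CPM.

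**Figure D3:**
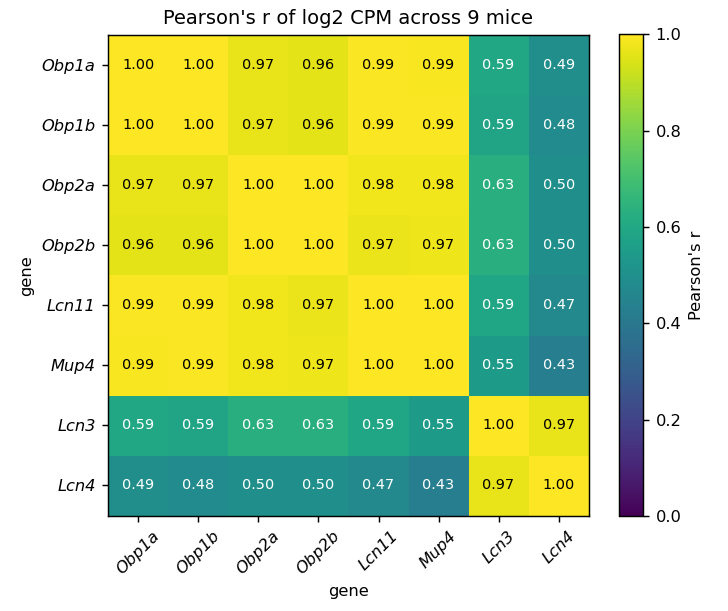
Pearson's r of log2 CPM over 9 mice for each pair of genes, written in each cell and shown by colour from 0 to 1. The first 6 genes form a block at 0.958 or above, Lcn3 and Lcn4 a pair at 0.965, and the cells between them lie from 0.427 to 0.631.

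The grouping by mouse did not follow the order on the chromosome. Lcn3 lies 25.47 kb after Obp2b and 8.918 kb before Lcn11, yet its r with Obp2a was 0.63, while that of Lcn11 with Obp2a was 0.98. This contrast narrowed to 0.846 against 0.934 without wild type 1 and Ms4a cluster knockout 2. Lcn4, 887.4 kb away, had the r of 0.965 with Lcn3, and Obp1a and Mup4, on 2 other chromosomes, had an r of 0.99 with each other. Of the lipocalin genes that flank the row, Lcn5, Lcn6, Lcn9 and Lcn10 had 0 counts in all mice and Lcn8 was at most 0.0711 CPM. Bmyc, the myc-family gene inside the row, was between 15.9 and 25.3 CPM. At much lower levels, the antisense gene A230005M16Rik inside the row (0 to 8.97 CPM) and Gm13539 just past Lcn11 (0 to 2.56 CPM) had r of 0.908 and 0.883 with Obp2a.

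Several neighbours on the X chromosome were high in the same mice as Obp1a and Obp1b. Between positions 77864758 and 78245921, Gm14744, also named Obp1f, was between 13.2 and 66417 CPM, and 5430402E10Rik was between 9.12 and 44227 CPM. The pseudogene Gm14750 reached 164.6 CPM and Gm5938, annotated as OBP6, reached 70.6 CPM. Their r with Obp1a was 0.998, 0.994, 0.991 and 0.912 over the 9 mice. Pbsn, the prostate lipocalin probasin at the edge of the same row, was at most 0.0997 CPM, and Prkx, the protein kinase gene beyond it, was between 79.8 and 106.9 CPM. The coding sequence of Gm5938 was 89.2% identical to that of Obp1a, and 30 bases of its upstream sequence matched the Obp1a stretch at 29 of 30 positions, while its highest level was 70.6 CPM against 48916 for Obp1a.

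Among 16325 genes with a median of at least 1 CPM outside the 8, Gm14744 had the most similar pattern to Obp1a, Obp1b, Lcn11 and Mup4, with r of 0.997 or above over the 9 mice. BC051076, an antisense gene elsewhere in the genome, was the most similar to Obp2a and Obp2b, with r of 0.982 and 0.974. For Lcn3 the most similar were Actn4, Chrd and Arap1, with r of 0.910, 0.905 and 0.893, and for Lcn4 they were Lpcat2, C130050O18Rik and 2610037D02Rik, with r of 0.897, 0.875 and 0.874. Actn4, an actin-crosslinking protein, was between 208 and 228 CPM over all mice, so its similarity to Lcn3 was one of order and not of size. These r values were the highest of many and are given as a description.

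The comparison of genotypes found no change in any of the 8 genes, in a test limited by the spread shown above. Each p-value measures the spread between these 9 animals, which the labels give as replicates of a genotype. In the quasi-likelihood test of edgeR, adjusted over all genes by Benjamini-Hochberg, 0 of 8 passed between the Ms4a cluster knockout and wild type, where 0.0258% of all genes tested did. Between the Ms4a6c knockout and wild type 0 of 8 passed against 0.435% of all genes, and between the 2 knockouts 0 of 8 passed against 0.443%. DESeq2 also called 0, with no adjusted p for 1 of the genes in each comparison. The 3 comparisons share groups and are not independent.

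At an unadjusted p under 0.05, 2 of 8 genes differed between the Ms4a cluster knockout and wild type, 4 between the Ms4a6c knockout and wild type, and 5 between the knockouts, against 4.93%, 10.5% and 9.38% of all genes tested. The first 2 were Lcn3, with a log2 fold change of 3.95 ± 1.59 (SE, edgeR, adjusted p = 0.968), and Lcn4, with 3.87 ± 1.63 (SE, edgeR, adjusted p = 0.968). Both rested on the levels of Ms4a cluster knockout 2 and 3, and Ms4a cluster knockout 1 lay within the wild-type range. The 5 between the knockouts were Obp1a, Obp1b, Obp2a, Lcn11 and Mup4. Their log2 fold changes were 5.59 to 6.57 with all mice and 2.65 to 3.69 without Ms4a cluster knockout 2. Because the 8 genes were correlated across mice, these counts are not counts of independent genes, and their excess over the shares of all genes was not tested.

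In the Ms4a6c knockout against wild type the 4 were Obp2a, Obp2b, Lcn11 and Mup4. Mup4 had the largest difference, a log2 fold change of -7.13 ± 2.79 (SE), with means of 73.0 against 10208 CPM (edgeR, adjusted p = 0.401). The lowest adjusted p of the 8 was 0.398, for Lcn11 (edgeR, log2 fold change -6.45 ± 2.52, SE). The wild-type mean was set by wild type 1. With that mouse left out, the log2 fold change was -1.62 for Mup4, -1.94 for Lcn11 and -0.72 for both Obp2a and Obp2b, and the lowest adjusted p of the 8 genes was 0.760 (edgeR).

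The median log2 fold change of the 8 genes was 0.37 in the Ms4a cluster knockout and -5.95 in the Ms4a6c knockout against wild type, and 5.92 between the knockouts. Over all genes tested it was 0.01, 0.00 and 0.01. Single mice decided the medians of the 8 genes: without wild type 1 the first was 4.69 and the second -1.09, and without Ms4a cluster knockout 2 the first was -2.80 and the third 3.07. The first was also negative, at -0.16 and -0.21, without wild type 2 and without wild type 3, and larger, at 0.96 and 0.83, without Ms4a cluster knockout 1 and 3. The 95% intervals, not adjusted for the number of genes, reached from -3.77 to 5.66 for Obp1a in the Ms4a cluster knockout and from -11.3 to 0.12 in the Ms4a6c knockout, so differences of many fold in either direction were within the interval of the first. No gene had groups that did not overlap in any comparison, whereas 9.86%, 18.3% and 16.0% of all genes tested did.

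**Figure D4:**
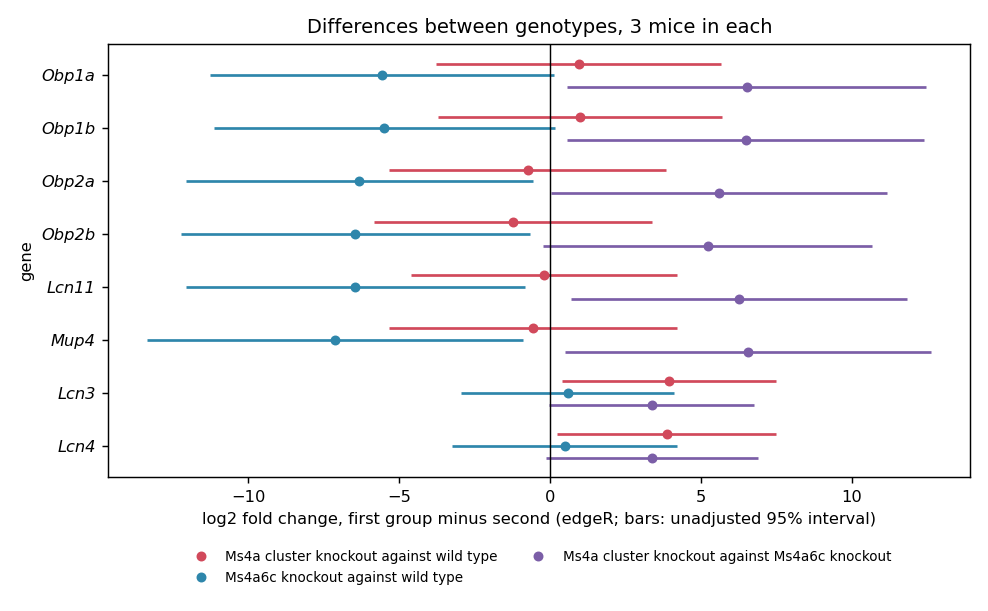
Log2 fold change of each gene in the 3 comparisons of genotypes, first-named group minus second, with unadjusted 95% intervals from edgeR (3 mice in each group). The intervals are wide, and those that leave out 0 belong to genes with an adjusted p of at least 0.398.

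The other glands and cell types were then set beside the carriers. For 17 gene lists, the mean of the centred log2 CPM of a list's tested genes was correlated with each of the 8 genes, which gave 136 relations, adjusted together. Of these, 24 passed by r, all with positive r: the 6 genes Obp1a, Obp1b, Obp2a, Obp2b, Lcn11 and Mup4 with the other lipocalins, serous gland secretions, secretoglobins and secretory cell regulators. By rho 18 passed, those of the first 3 lists. Without wild type 1 and Ms4a cluster knockout 2, those lists passed by r with 4, 1 and 2 of the 6 genes. Their r with the 6 genes was 0.829 or above without the 2 farthest mice. Lcn3 and Lcn4 passed with none of the 17 lists (lowest adjusted p = 0.273 by r and 0.169 by rho, exact permutation, n = 9). Their r depended on wild type 1. The lowest r of any of the 8 genes with the secretoglobins was 0.483 with all mice and 0.794 without wild type 1. It was 0.882 without both wild type 1 and Ms4a cluster knockout 2, where Lcn3 and Lcn4 again passed with no list.

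With the other lipocalins, of which 14 of 41 genes were tested, the 6 genes had r between 0.944 and 0.988 (lowest adjusted p = 0.000187, exact permutation, n = 9). That list holds the X-linked relatives Gm14744 and Gm14743, the latter sharing reads with Obp1b. It also holds Mup5 and Mup6, whose reads could have been shared with Mup4. Ptgds was the only gene of the list called, in the Ms4a6c knockout against wild type (edgeR, log2 fold change 0.586 ± 0.0838, SE, adjusted p = 0.01245). With the secretoglobins, small secreted proteins of mucosal glands, r was 0.962 to 0.973 (lowest adjusted p = 0.000525, exact permutation, n = 9). Scgb2b27 was at 110.4, 13.6 and 0.0569 CPM in the wild-type mice, at 0.301, 52.5 and 44.1 CPM in the Ms4a cluster knockout mice, and at 1.84, 0.434 and 0.828 CPM in the Ms4a6c knockout mice, while Scgb1c1, the highest of the list, was between 2149 and 2839 CPM in all mice.

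With the serous gland secretions r was 0.933 to 0.970 (lowest adjusted p = 0.00137, exact permutation, n = 9). Within that list the order of mice differed between genes. Dmbt1, a secreted scavenger receptor of mucosa and glands, and Ltf, the iron-binding lactoferrin, were highest in Ms4a cluster knockout 3, at 476 and 631 CPM, the mouse that also led for Lcn3 and Lcn4. Car6, the secreted carbonic anhydrase of saliva, was at 34.6 and 32.9 CPM in Ms4a cluster knockout 2 and 3 and at 18.2 and 10.4 CPM in wild type 1 and 2, but at most 0.533 CPM in the other 5 mice. Odam, which encodes a secreted protein first known from developing teeth, was at 206 and 216 CPM in wild type 1 and Ms4a cluster knockout 2, at 48.5 CPM in Ms4a6c knockout 2 and at most 4.43 CPM elsewhere.

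The secretory cell regulators had r of 0.831 to 0.873 with the 6 genes (lowest adjusted p = 0.0253, exact permutation, n = 9), which rested on 2 mice. By rho the list passed with none of them (adjusted p = 0.169 to 0.173, exact permutation, n = 9). Bhlha15, a transcription factor of serous secretory cells, was at 101.9 and 103 CPM in wild type 1 and Ms4a cluster knockout 2 and between 3.89 and 11.1 CPM in the other 7 mice. Xbp1, of the same list, was at 291 and 294 CPM in those 2 mice and between 145 and 168 CPM in the other 7. Agr2 did not follow them. It was at 204 and 208 CPM in those 2 mice, between 199 and 260 CPM in the others, and highest in the Ms4a6c knockout mice, at 250 CPM or above. Without the 2 farthest mice r for this list fell to between 0.340 and 0.4998. The list did not pass without wild type 1, wild type 3, Ms4a cluster knockout 2 or Ms4a cluster knockout 3, each left out singly.

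The BPI-fold proteins, secreted lipid-binding proteins of the upper airway, had r of 0.741 to 0.792 with the 6 genes and did not pass (lowest adjusted p = 0.0731, exact permutation, n = 9). Bpifb9b was at 148513 and 144749 CPM in wild type 1 and Ms4a cluster knockout 2, but its third-highest level, 30616 CPM, was in Ms4a6c knockout 2, where Obp1a was at 92.2 CPM. In Ms4a cluster knockout 3, where Obp1a was at 2758 CPM, Bpifb9b was at 2980.0 CPM. Without Ms4a6c knockout 2, all 6 genes passed with this list. The BPI-fold proteins had r of -0.08 to 0.08 with Lcn3 and Lcn4.

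The Bowman gland list, from the mucus glands of the olfactory mucosa itself, had r of 0.437 to 0.560 with the 6 genes and did not pass (lowest adjusted p = 0.303, exact permutation, n = 9). By rho the list had 0.650 to 0.683 with the 6 genes and passed with none. Its direction turned with the scaling: with the plain library size r was negative for all 8 genes and 3 of the relations passed. Without wild type 2, under TMM scaling, r was positive for all 8 genes, at 0.364 to 0.837, and the list passed with Obp2b. Muc5b, a gel-forming mucin of these glands, was between 284 and 453 CPM in all mice, and Aqp5, a water channel of gland cells, between 156 and 228 CPM. Gpx6, the highest gene of the list, was lowest in wild type 1 and Ms4a cluster knockout 2, at 971 and 910 CPM. In the other mice it was between 1281 and 1858 CPM. The r with Obp1a was -0.708 for Gpx6, -0.391 for Muc5b and 0.504 for Aqp5. Gpx6 and Muc5b thus differed in sign from the list as a whole. Sox9 and Sox10, also of the list, are not described here, so these r values do not stand for the list. The lists of mature olfactory neurons and sustentacular cells had r between -0.75 and -0.68 with the 6 genes and did not pass (lowest adjusted p = 0.0904, exact permutation, n = 9), whereas with the plain library size both passed with all 6. They also passed when a single mouse was left out, the neuronal list without wild type 2 and the sustentacular list without Ms4a cluster knockout 1. The other 9 lists gave 0 passing relations with TMM scaling and all mice. With the plain library size 3 of them, odorant clearance and lipocalin receptors, vomeronasal receptors and myeloid cells, passed with all 6 genes at negative r, and the vomeronasal receptors also passed with Obp2a and Obp2b without Ms4a6c knockout 2.

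Muscle and sex-linked genes were set beside the carriers as well. Ckm and Acta1, skeletal muscle genes, were highest in Ms4a cluster knockout 3, at 91.8 and 64.7 CPM, which also had the highest Lcn3 and Lcn4, and next in wild type 2, at 7.16 and 9.65 CPM. The list of cartilage, bone, muscle and blood had r of 0.58 with both genes (lowest adjusted p = 0.273, exact permutation, n = 9), and its part in their levels was not tested. Without wild type 1 and Ms4a cluster knockout 2, that list passed with Lcn11 and Mup4. Xist, the X-linked RNA of X inactivation, was between 247 and 366 CPM in 5 mice and at most 2.61 CPM in the other 4, which were Ms4a cluster knockout 3, wild type 1, and Ms4a6c knockout 2 and 3. In these 4 the Y-linked Ddx3y was between 37.1 and 41.4 CPM, against at most 0.455 CPM in the other 5. Each genotype held mice of both kinds, and the part of sex in the results was not tested.

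**Figure D5:**
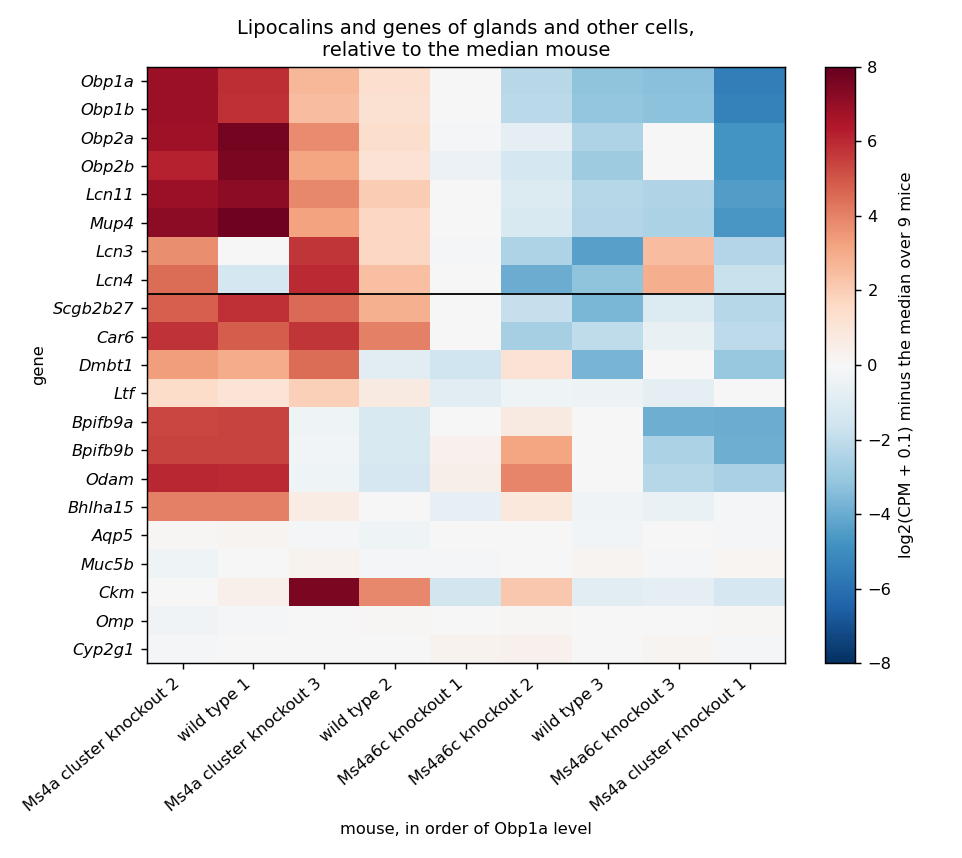
Each gene's log2(CPM + 0.1) minus its median over the 9 mice, by colour, with mice in order of their Obp1a level; the 8 lipocalins are above the line and genes of glands, muscle, neurons and sustentacular cells below. Scgb2b27 and Car6 are high in the first 4 mice, Bpifb9b and Odam are high in the first 2 and in Ms4a6c knockout 2, and Ckm stands out in Ms4a cluster knockout 3. Omp and Cyp2g1 vary little on this scale, although Omp was lowest in the first 2 mice and had r of -0.83 with Obp1a.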

How the data were processed

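Per the labels and methods, poly-A RNA went into strand-specific libraries, and the authors aligned the reads to mm10 with STAR 2.6.1 and deposited RSEM 1.3.1 expected counts per gene (GENCODE M25), not normalized and with 1 column per mouse. R 4.0.0 and DESeq2 1.30.1 are also named in the submitters' processing notes. RSEM shares reads between similar genes, so near-identical copies are uncertain.

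The values were rounded before testing. A gene entered if its counts over the 9 mice reached 10, and was tested with edgeR 4.0.16 (R 4.3.3) by the quasi-likelihood test with TMM scaling, all 9 mice in one model, Benjamini-Hochberg adjustment and a threshold of 0.05. Levels are CPM of the TMM-scaled library, and levels per kilobase divide these by transcript length. Correlations used log2 CPM with a prior count of 2 and two-sided exact permutation over all orders of the mice. The procedures were tested on simulated data. The limit of 3 counts covers counting error only, since the reads carry no molecular identifiers.

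GENCODE M21 (also GRCm38) supplied transcript lengths and coordinates. It holds 1 of the 2 deposited transcripts of Lcn3. Upstream sequences came from RefSeq for 11 of the 12 genes looked up, all but Mup5. Near-identical transcripts were sought with blast 2.17.0 on the same strand, at 90% identity over at least 300 bases. Python 3.11, Biopython 1.88 and matplotlib 3.10.9 were used.

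The members, lists and tests were chosen with earlier results of these data known. The genes set out to be named were the 8 members, the 2 highest genes of a list and any called gene of a list. The 3 genes most like each member, Ms4a6c and Ms4a1 were set out as well. Not all of them are described above. The called list genes were Ptgds, Agr2, Gng13 and Tex15, each in the Ms4a6c knockout against wild type. Agr2 and Gng13 were also called between the knockouts. Ddx3y was named outside this rule. The neighbours, the X-linked relatives, the near-identical copies, Odam, Car6, Bhlha15, Aqp5, Acta1 and Ckm were named after their values were seen. Alternatives were other scalings, filters, DESeq2 1.42.0, the replicate block, other thresholds and leaving out mice.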

Additional observations from a re-analysis of the deposited data

How the results depend on the processing

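The count of members called was 0 in each comparison under each alternative run (63 fits), with the lowest adjusted p for a member 0.0836, by DESeq2 for the Ms4a6c knockout against wild type. Over all genes, DESeq2 called 18, 343 and 271 in the 3 comparisons against 6, 101 and 103 by edgeR, the fit without a filter called 182 and 155 in the last 2, the plain library size 68 and 58, and an adjusted p under 0.1 gave 179 and 155. With single mice left out the counts over all genes were 3 to 7, 59 to 159 and 66 to 121, and without both wild type 1 and Ms4a cluster knockout 2 they were 8, 350 and 147. Same-numbered mice did not deviate together (mean r -0.126 over 9 pairs, 0 above 0.1), so the numbers do not pair the mice; the replicate block gave 0 members and 2, 71 and 75 genes, and turned the log2 fold changes of the Ms4a cluster knockout against wild type to 1.56 for Obp2a, 1.11 for Obp2b, 2.34 for Lcn11 and 2.23 for Mup4, and that of Lcn3 in the Ms4a6c knockout to -0.13. None of these passed the test, and the cause was not tested.

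With each mouse left out in turn, the log2 fold change in the Ms4a cluster knockout ranged from -2.70 to 4.91 for Obp1a, -2.85 to 5.02 for Obp1b, -3.30 to 4.86 for Obp2a, -3.81 to 4.51 for Obp2b, -2.76 to 4.31 for Lcn11 and -4.003 to 4.95 for Mup4, and in the Ms4a6c knockout from -1.34 to 2.16 for Lcn3 and -1.79 to 3.83 for Lcn4. Without both wild type 1 and Ms4a cluster knockout 2, an alternative chosen after seeing the data, the first comparison gave 2.30 for Obp2a, 1.92 for Obp2b, 1.76 for Lcn11 and 1.51 for Mup4. In all, 22 of 501 refitted log2 fold changes turned.

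The 16 pairs of members that passed were 16 to 21 with single mice left out. Passing relations with gene lists numbered 24 in the main fit, 57 with the plain library size and 18 to 32 with single mice left out. Without both wild type 1 and Ms4a cluster knockout 2 they numbered 9. Of these, 4 were with the other lipocalins, 1 with the serous gland secretions and 2 with the secretoglobins. The other 2, with cartilage, bone, muscle and blood, were not among the 24. As deviations from the genotype means 0 passed. Permutation within genotypes cannot give a p below 0.00463, which limits what can pass but does not fix the count at 0. The 16 pairs of members passed under it, adjusted over 28. The other lipocalins, serous gland secretions and secretoglobins passed with all 6 genes whichever single mouse was left out. Summing Obp1b with Gm14743, or Obp2a with Obp2b, both chosen after seeing the data, left 0 members called. Summing Obp1a with Obp1b was not run, because their transcripts were not near-identical. At 3 counts, Lcn3 and Lcn4 could not be told from 0 in the lowest mice.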
